A study of Mus musculus with 15 samples.

Results

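The first step of 4-factor germ cell induction was described by comparing D2PGCLCs, the primordial germ cell-like cells collected on day 2, with the epiblast-like cells (EpiLCs) from which they were made. Of the 15 RNA-seq samples of the series, 6 belong to this step, 3 replicates of each group, chosen by their labels. Of the 55536 genes deposited, 18090 passed the filter on low counts and were tested, and none was selected for how it behaved. Primordial germ cells are the founders of sperm and egg. In the mouse embryo they arise from epiblast cells that have left the naive pluripotent state, and they are known to silence the somatic programme, to take up parts of the naive network again and to begin erasing DNA methylation. Prdm1, Prdm14 and Tfap2c encode the transcription factors at the base of this programme, and Nanog encodes a pluripotency factor.

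All samples came from male mouse embryonic stem cells (ESCs) with a Stella-eGFP reporter and doxycycline-inducible copies of the same 4 genes. The EpiLCs therefore carried the transgenes as well. The ESCs were kept in 2i + LIF before use. The study's methods describe upkeep of mouse ESCs on irradiated feeder fibroblasts, and of naive ESCs in 2i + LIF on coated wells. Whether any feeder cells were present in these samples is not given. EpiLCs were attached cells on fibronectin, grown with Activin A, bFGF and knockout serum replacement for 48 h and not given doxycycline. D2PGCLCs were aggregates of EpiLCs in a medium with more of that serum replacement and with doxycycline in place of Activin A and bFGF, and eGFP-positive cells were collected from them. Transgene induction, medium, aggregation, time in culture and sorting therefore changed together, and their effects cannot be told apart here. The transgenic lines were clonal, the labels do not say whether replicates were separate cultures, and whether the EpiLCs were sorted is not given in the sources used here. The p-values measure the spread between these samples, which may be technical, and a lower level in a bulk sample can mean fewer cells with the RNA or less RNA per cell, which cannot be told apart.

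Between 27839735 and 32594579 reads per EpiLC sample and between 28907803 and 34808685 per D2PGCLC sample were counted on genes. Between 22073 and 22468 genes had at least 1 count in an EpiLC sample, and between 21933 and 22246 in a D2PGCLC sample. The 100 genes with the most counts held 20.2% to 20.4% of the counts in EpiLCs and 17.9% to 19.4% in D2PGCLCs. Levels are given in CPM, the counts scaled to a common library size after TMM normalization, as means ± SD over the 3 samples of a group, and log2 fold changes of D2PGCLCs against EpiLCs as the fitted value ± SE. A gene was called higher or lower when its adjusted p in edgeR's quasi-likelihood test was under 0.05 and its log2 fold change was above 1 or below -1, and the words rose and fell are used for called genes alone.

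More genes were called lower than higher in this step. Of the 18090 genes tested, 1988 (11.0%) were called higher and 2608 (14.4%) lower, with median log2 fold changes of 1.70 and -2.20, respectively. Changes beyond 3 on the log2 scale numbered 318 among the higher genes and 769 among the lower ones. At any fold, 9626 genes (53.2%) had an adjusted p under 0.05, and of these more were higher (4919) than lower (4707). The shares of gene lists given after counts below are to be read against the 11.0% and 14.4% of all genes. The 3 D2PGCLC samples all lay above the 3 EpiLC samples for 5540 genes (30.6%) and all below for 5488 (30.3%), which included 1931 of the genes called higher and 2565 of those called lower. Over all tested genes the median log2 fold change was 0.003 and the median absolute value 0.58. Genes called higher made up 2.42% of all CPM in EpiLCs and 7.31% in D2PGCLCs, while genes called lower went from 7.77% to 2.55%. The corresponding counts were 2603 higher and 2145 lower between EpiLCs and ESCs, 463 and 68 between days 4 and 2, and 415 and 142 between days 6 and 4, each comparison sharing its samples with the next. The plot of fold change against level shows that the called genes span the whole range of expression.

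**Figure D1:**
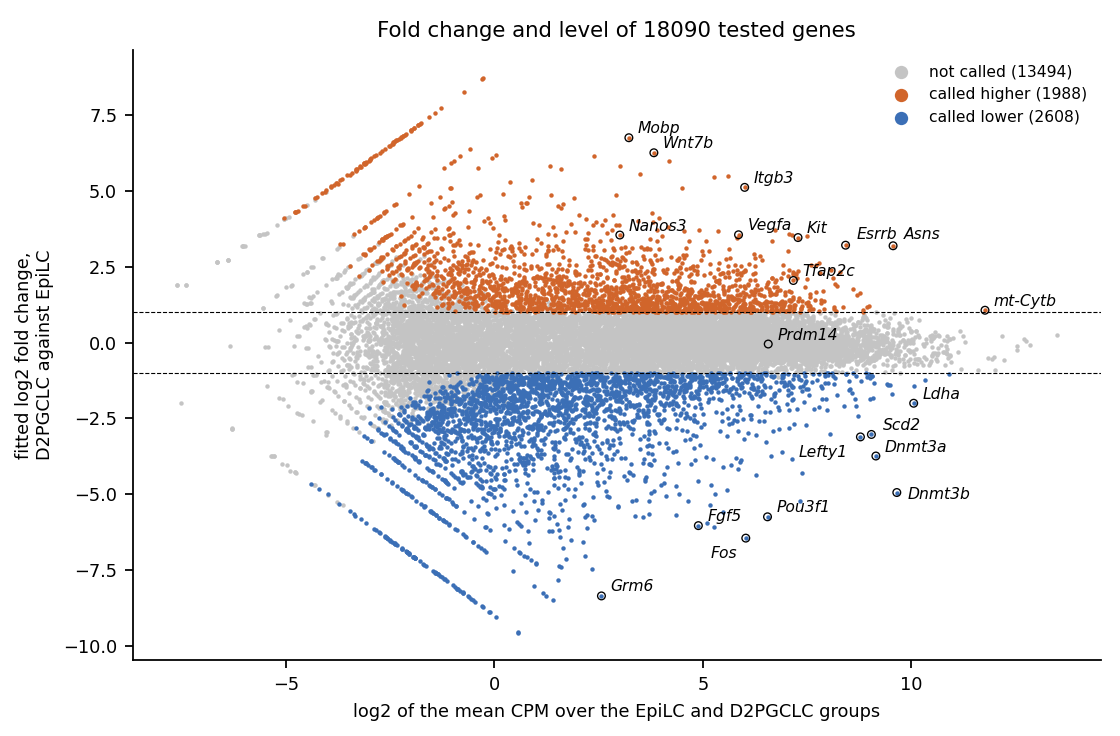
Fitted log2 fold change of D2PGCLCs against EpiLCs (vertical axis) against the log2 of the mean CPM of both groups (horizontal axis), 1 point per tested gene; 16 genes without counts in both groups are not drawn. Orange points are the 1988 genes called higher and blue points the 2608 called lower, dashed lines mark log2 fold changes of 1 and -1, and Mobp and Grm6 lie near the upper and lower edges at 6.76 and -8.35.

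Of the 4 induced factors, Tfap2c alone was called. Tfap2c was at 53, 59.95 and 55.3 CPM in the EpiLC samples and 234, 222 and 239 CPM in the D2PGCLC samples (log2 fold change 2.05 ± 0.08, edgeR adjusted p = 2.53e-13). Nanog was at 462, 582 and 583 CPM before and 789.8, 846 and 889 CPM after induction, and Prdm1 at 59.6, 80.9 and 74.2 CPM and 114, 101 and 103 CPM. For both, the samples did not overlap, but the log2 fold changes of 0.63 ± 0.11 and 0.57 ± 0.11 did not reach the fold threshold. Prdm14 was at 78.7, 106 and 105 CPM in EpiLCs and 94, 95.2 and 91 CPM in D2PGCLCs, with overlapping samples and a log2 fold change of -0.05 ± 0.10 (edgeR adjusted p = 0.735). In ESCs, Prdm1 averaged 10.9 CPM and Prdm14 44.9 CPM. Reads of a transgene and of its endogenous gene are counted together here. Dppa3, the gene of the Stella reporter by which D2PGCLCs were collected, was at 101, 75.8 and 79 CPM in EpiLCs and 438, 482 and 436 CPM in D2PGCLCs (log2 fold change 2.41), a rise that the sort itself selects for.

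Genes of germ cell specification and of the PGC surface mostly rose. Of the 32 tested members, 18 (56.2%) were called higher and 4 (12.5%) lower, and the median log2 fold change was 1.19, where 11.0% and 14.4% of all genes were called. This count holds the 4 genes with transgenes and Dppa3, and without these 5 it was 16 higher (59.3%) and 4 lower (14.8%) of 27. Nanos3, an RNA-binding protein that protects migrating germ cells from death, was at 0.765, 1.64 and 1.36 CPM in EpiLCs and 16.3, 14.8 and 13.5 CPM in D2PGCLCs (log2 fold change 3.55 ± 0.28, edgeR adjusted p = 5.85e-09). Dnd1, its partner in binding germ cell mRNAs, rose from 12.8 ± 1.41 to 38.2 ± 2.54 CPM (log2 fold change 1.58 ± 0.14). The let-7 antagonists Lin28a and Lin28b went the other way, Lin28a from 545 ± 31.9 to 129 ± 18.6 CPM (log2 fold change -2.08 ± 0.12). Lin28b fell from 65.8 ± 2.15 to 18.1 ± 2.46 CPM (log2 fold change -1.86 ± 0.13). Lin28a was at 579.7, 517 and 539.5 CPM in the EpiLC samples and 125, 149 and 113 CPM in the D2PGCLC samples.

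Among PGC surface proteins, the largest rise was that of Itgb3, the integrin subunit CD61 used to isolate PGCLCs. Itgb3 was at 3.87, 3.45 and 3.45 CPM in EpiLCs and 130.1, 112 and 132 CPM in D2PGCLCs (log2 fold change 5.12 ± 0.12, edgeR adjusted p = 4.3e-16). Kit, the receptor of stem cell factor, was at 20.1, 29.5 and 28 CPM and 299.9, 283 and 274 CPM, respectively (log2 fold change 3.46 ± 0.12). Every D2PGCLC sample lay above every EpiLC sample for both genes. Alpl, the alkaline phosphatase by which PGCs are stained, rose from 103 ± 4.21 to 451 ± 29.8 CPM (log2 fold change 2.13 ± 0.10). Cxcr4, the receptor that guides migrating PGCs, rose from 1.29 ± 0.599 to 9.39 ± 1.47 CPM (log2 fold change 2.84 ± 0.26). The interferon-induced membrane proteins Ifitm1, Ifitm2 and Ifitm3 rose with log2 fold changes of 2.29 ± 0.12, 1.87 ± 0.24 and 2.27 ± 0.14, and of the 5 Ifitm genes tested 3 were called higher and 0 lower. Podxl, a sialomucin of the apical surface, fell from 185 ± 19.5 to 13.9 ± 2.93 CPM (log2 fold change -3.73 ± 0.19). Among the regulators, Nr5a2 rose from 19.6 ± 2.88 to 118 ± 17.6 CPM (log2 fold change 2.58 ± 0.11). Tcl1 rose from 12.3 ± 1.17 to 59.8 ± 10.1 CPM (log2 fold change 2.28 ± 0.12). The arginine methyltransferase Prmt5 was at 291 ± 6.77 CPM in EpiLCs and 217 ± 4.99 CPM in D2PGCLCs (log2 fold change -0.42 ± 0.08).

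**Figure D2:**
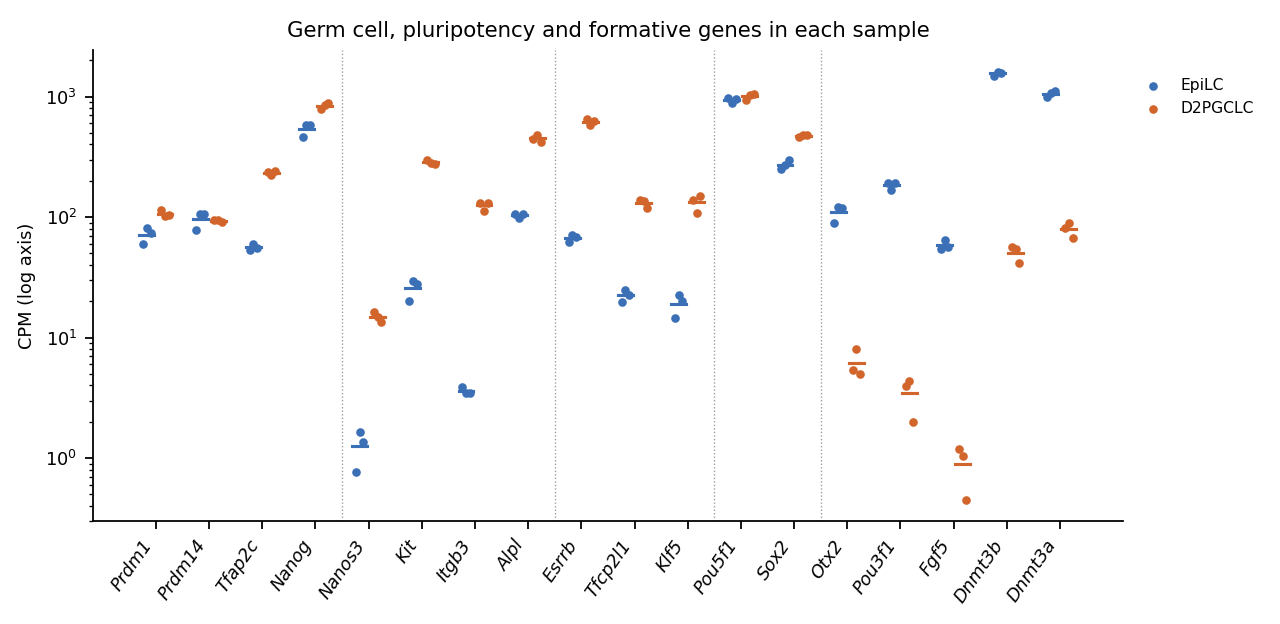
CPM on a log axis for 18 genes in each of the 3 EpiLC samples (blue) and 3 D2PGCLC samples (orange); points are samples and bars group means, and dotted lines separate the induced factors, PGC genes, naive factors, core factors, and formative genes with the de novo methyltransferases. Prdm14 and Pou5f1 overlap between groups, the PGC and naive genes drawn are higher in every D2PGCLC sample, and Otx2 to Dnmt3a are lower in every one. The 18 genes were picked for the figure. In the whole list of germ cell specification, 23 of 32 members were higher without overlap and 6 lower. In the naive list, 19 of 32 were higher without overlap and 9 lower. Of all tested genes, 30.6% were higher without overlap and 30.3% lower.

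Late germline genes, which in PGCs are switched on as promoter methylation is lost, did not move together on day 2. Of the 52 tested members, 8 (15.4%) were called higher and 7 (13.5%) lower, with a median log2 fold change of 0.02, shares close to those of all genes. Dazl, an RNA-binding protein that licenses germ cells for gametogenesis, was at 6.28, 6.31 and 6.53 CPM in EpiLCs and 44, 28.1 and 45.2 CPM in D2PGCLCs (log2 fold change 2.62 ± 0.20). In the later groups, its mean was 186 CPM on day 4 and 428 CPM on day 6. Meiob, which binds single-stranded DNA in meiotic recombination, rose from below 1 CPM, with samples at 0.0765, 0.263 and 0.22 CPM, to 1.99, 2.01 and 1.77 CPM (log2 fold change 3.31 ± 0.38). The cohesin subunit Stag3 rose from 9.998 ± 1.09 to 47.6 ± 3.28 CPM (log2 fold change 2.25 ± 0.12). Gata2, a transcription factor placed on the same list, rose from 2.85 ± 1.32 to 11.8 ± 4.5 CPM (log2 fold change 2.06 ± 0.29). In the piRNA pathway, of the 13 tested members, 1 (7.69%) was called higher and 4 (30.8%) lower. Its PIWI proteins Piwil1 and Piwil4 fell from 6.53 ± 1.04 to 0.81 ± 0.416 CPM (log2 fold change -2.99 ± 0.45) and from 4.04 ± 0.655 to 0.433 ± 0.169 CPM (log2 fold change -3.22 ± 0.38). Ddx4, the VASA helicase, was at 19.4 ± 2.68 CPM in EpiLCs and 30.6 ± 2.22 CPM in D2PGCLCs (log2 fold change 0.65 ± 0.12). The synaptonemal complex gene Sycp3 fell from 8.67 ± 0.167 to 3.67 ± 0.815 CPM (log2 fold change -1.24 ± 0.20).

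The promoters of this group are shown because MGA and MAX of the germline-repressing complex PRC1.6 bind the E-box, spelled CACGTG, which reads the same on both strands. A RefSeq promoter of GRCm38.p6, 250 bases before to 50 after a start site, was matched by symbol for 44 of the 52 tested members, and 17 of the 44 (38.6%) held CACGTG, against 9.91% of the 12255 promoters matched to tested genes and 7.15% of all 32851 promoters of the table. Among the 17 members with the letters 1 was called higher and 4 lower, and among the 27 others 6 and 3. Of all tested genes, 11.0% were called higher and 14.4% lower. The 3 shown are those whose call held with each sample left out in turn and whose RefSeq start lies within 300 bases of the gene start used here, and the 250 bases before the start are printed 5′ to 3′ on the strand of the gene, with CACGTG in capitals. Stag3 was called higher, and Sycp3 and Taf7l, a testis form of a TFIID subunit, were called lower.
Stag3 (chr5:138280259-138280508, plus strand): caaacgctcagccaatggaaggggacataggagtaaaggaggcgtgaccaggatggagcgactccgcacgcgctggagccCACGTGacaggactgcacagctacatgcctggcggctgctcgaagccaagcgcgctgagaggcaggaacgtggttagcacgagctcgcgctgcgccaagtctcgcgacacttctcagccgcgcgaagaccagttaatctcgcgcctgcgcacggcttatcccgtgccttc
Sycp3 (chr10:88459337-88459586, plus strand): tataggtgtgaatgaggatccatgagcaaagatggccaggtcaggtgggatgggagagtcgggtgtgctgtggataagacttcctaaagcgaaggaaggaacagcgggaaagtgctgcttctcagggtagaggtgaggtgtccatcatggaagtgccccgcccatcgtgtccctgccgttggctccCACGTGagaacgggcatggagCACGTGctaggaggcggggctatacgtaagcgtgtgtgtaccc
Taf7l (chrX:134476491-134476740, minus strand): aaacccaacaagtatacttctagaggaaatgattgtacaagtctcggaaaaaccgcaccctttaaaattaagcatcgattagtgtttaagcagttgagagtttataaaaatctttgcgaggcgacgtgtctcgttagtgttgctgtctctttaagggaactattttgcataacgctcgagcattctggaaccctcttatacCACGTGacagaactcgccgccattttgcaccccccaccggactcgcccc
In these windows, CACGTG begins 170 bases before the start in Stag3, 64 and 43 bases before it in Sycp3, and 49 bases before it in Taf7l. Taf7l fell from 5.58 ± 1.9 to 1.97 ± 0.46 CPM (log2 fold change -1.5 ± 0.32). Over all tested genes 12255 of 18090 (67.7%) had a promoter in the table, and the 9.91% above rests on these. This is fewer than the 80% needed here to compare promoter letters between called and other genes. No such comparison is given over all tested genes. The split of calls by the letters within the list rests on few genes and was not tested.

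Genes of the formative and primed states fell. Of the 38 tested members, 1 (2.63%) was called higher and 19 (50%) lower, and the median log2 fold change was -1.47. Fgf5, the ligand that marks formative epiblast, was at 53.9, 64.9 and 56.7 CPM in EpiLCs and 1.2, 1.04 and 0.45 CPM in D2PGCLCs (log2 fold change -6.04 ± 0.32, edgeR adjusted p = 2.38e-11). Pou3f1, the POU factor OCT6, was at 192, 169 and 191 CPM and 3.98, 4.37 and 2.01 CPM (log2 fold change -5.75 ± 0.24). Otx2, a homeodomain factor of the epiblast known to restrain entry to the germline, was at 88.9, 121 and 118 CPM and 5.36, 8.03 and 4.98 CPM (log2 fold change -4.17 ± 0.28). No D2PGCLC sample reached any EpiLC sample in these 3 genes. The HMG-box factors Sox3, Sox4 and Sox11 fell with log2 fold changes of -5.42 ± 0.39, -3.16 ± 0.15 and -4.57 ± 0.20, with Sox3 at -6.02 without D2PGCLC replicate 1, and Sall2, a zinc finger factor, from 33.6 ± 3.06 to 1.02 ± 0.387 CPM (log2 fold change -5.05 ± 0.28). The single member called higher was Id4, an inhibitor of bHLH factors, which rose from 2.09 ± 0.223 to 16.6 ± 0.778 CPM (log2 fold change 2.98 ± 0.19), and 2 members were called higher without D2PGCLC replicate 3. Not every member was called, and some were higher short of the fold threshold: Utf1 was at 203 ± 14.6 CPM in EpiLCs and 287 ± 25.9 CPM in D2PGCLCs (log2 fold change 0.5 ± 0.12). The ETS factor Etv5 was at 454 ± 27.5 CPM in EpiLCs and 617 ± 13.6 CPM in D2PGCLCs (log2 fold change 0.44 ± 0.07).

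Naive pluripotency genes divided. Of the 32 tested members, 12 (37.5%) were called higher and 6 (18.8%) lower, with a median log2 fold change of 0.75. Esrrb, an orphan nuclear receptor of the naive network, was at 61.7, 70.5 and 68.4 CPM in EpiLCs and 649.5, 578 and 631 CPM in D2PGCLCs (log2 fold change 3.21 ± 0.09, edgeR adjusted p = 4.21e-15), and was among the 10 genes that gained most CPM. Klf5 rose from 19 ± 4.02 to 132 ± 21.5 CPM (log2 fold change 2.80 ± 0.15). Tfcp2l1 rose from 22.5 ± 2.6 to 131 ± 11.2 CPM (log2 fold change 2.54 ± 0.14). Zfp42, which encodes REX1, rose from 124 ± 6.19 to 330.2 ± 15.2 CPM (log2 fold change 1.41 ± 0.08). Tdh, the threonine dehydrogenase of mouse ESCs, rose from 104 ± 3.75 to 524 ± 20.1 CPM (log2 fold change 2.34 ± 0.08). Klf4 did not follow them and fell from 16.2 ± 1.92 to 5.99 ± 0.387 CPM (log2 fold change -1.44 ± 0.15), from 14, 17.8 and 16.8 CPM to 6.16, 6.27 and 5.55 CPM in the samples. Gbx2, a homeodomain factor, fell from 10.1 ± 1.47 to 2.73 ± 0.155 CPM (log2 fold change -1.89 ± 0.26). Fgf4 fell from 165 ± 28.4 to 67.4 ± 5.63 CPM (log2 fold change -1.30 ± 0.14). Zscan4c, which marks the 2-cell-like cells that appear now and then in ESC cultures, fell from 9.27 ± 1.99 to 0.131 ± 0.0875 CPM (log2 fold change -6.13 ± 0.47).

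Of the core pluripotency genes, Pou5f1 and Sox2 were not called. Of the 18 tested members, 1 (5.56%) was called higher and 5 (27.8%) lower, and the median log2 fold change was -0.25. Pou5f1, which encodes OCT4, was at 974, 888 and 962 CPM in EpiLCs and 944, 1033 and 1050 CPM in D2PGCLCs, with overlapping samples and a log2 fold change of 0.10 ± 0.09 (edgeR adjusted p = 0.353). Sox2 was at 250.1, 269.5 and 295 CPM and 465, 478 and 481 CPM, higher in every D2PGCLC sample but with a log2 fold change of 0.81 ± 0.08 that did not reach the threshold. Zfp296, a zinc finger partner of the core factors, rose from 9.51 ± 1.57 to 48.6 ± 2.6 CPM (log2 fold change 2.35 ± 0.12). Tdgf1, the Nodal co-receptor CRIPTO, fell from 656 ± 61.9 to 155 ± 50.03 CPM (log2 fold change -2.08 ± 0.29). Eras, an ESC-specific Ras protein, fell from 17.6 ± 3.18 to 3 ± 0.329 CPM (log2 fold change -2.55 ± 0.35). Cdh1, which encodes E-cadherin, fell from 623 ± 1.83 to 262 ± 8.37 CPM (log2 fold change -1.25 ± 0.09).

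The de novo DNA methyltransferases fell. Dnmt3b was at 1489, 1611 and 1576 CPM in EpiLCs and 56, 54.1 and 41.8 CPM in D2PGCLCs (log2 fold change -4.94 ± 0.16, edgeR adjusted p = 4.18e-14). Dnmt3a was at 991, 1075 and 1104 CPM and 80.6, 89.8 and 66.9 CPM, respectively (log2 fold change -3.74 ± 0.19). Dnmt3b lost more CPM than any other called gene, and all 3 D2PGCLC samples lay below all EpiLC samples for both. Their cofactor Dnmt3l fell from 414 ± 16.1 to 89.2 ± 12 CPM (log2 fold change -2.21 ± 0.26). The remodeller Hells fell from 1003 ± 96.1 to 379 ± 24.5 CPM (log2 fold change -1.41 ± 0.10). The maintenance enzyme Dnmt1 was at 398 ± 20.9 CPM in EpiLCs and 493 ± 16.9 CPM in D2PGCLCs (log2 fold change 0.31 ± 0.08). Its targeting partner Uhrf1 was at 530.5 ± 27.5 CPM in EpiLCs and 280.5 ± 11.5 CPM in D2PGCLCs (log2 fold change -0.92 ± 0.10). Among erasers, the dioxygenase Tet2 rose from 28.7 ± 4.5 to 101 ± 10.6 CPM (log2 fold change 1.82 ± 0.18). Tet1 was at 388 ± 49.5 CPM in EpiLCs and 489.8 ± 71.7 CPM in D2PGCLCs (log2 fold change 0.34 ± 0.13), and the stress-linked Gadd45b and Gadd45g went opposite ways, at log2 fold changes of 2.17 ± 0.14 and -4.68 ± 0.24. Of the 20 tested members, 2 (10%) were called higher and 6 (30%) lower, and the summed level of the list went from between 6484 and 7109 CPM in EpiLC samples to between 3645 and 3794 CPM in D2PGCLC samples.

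Most enzymes of H3K9 and H3K27 methylation, repressive histone marks that PGCs rearrange, were not called, which was true of all genes as well. Those not called numbered 30 of 37, beside 13494 of the 18090 genes tested. Of the 37 tested members, 6 (16.2%) were called higher and 1 (2.7%) lower, with a median log2 fold change of 0.09. Phf19, which tethers the H3K27 methyltransferase complex PRC2 to chromatin, was at 21.3, 18.9 and 21.5 CPM in EpiLCs and 246, 259.9 and 233 CPM in D2PGCLCs (log2 fold change 3.58 ± 0.10). Phf1, its paralog, rose from 4.37 ± 1.03 to 9.77 ± 1.02 CPM (log2 fold change 1.16 ± 0.19). The catalytic subunit Ezh2 was at 334 ± 35.3 CPM in EpiLCs and 379 ± 11 CPM in D2PGCLCs (log2 fold change 0.18 ± 0.08). Of the H3K9 demethylases, Kdm3b rose from 110.3 ± 1.66 to 261 ± 16.3 CPM (log2 fold change 1.24 ± 0.08). Kdm4c fell from 247 ± 35.7 to 92.5 ± 7.42 CPM (log2 fold change -1.42 ± 0.14), and the H3K9 methyltransferase Ehmt2, which encodes G9a, was at 233 ± 18.6 CPM in EpiLCs and 238 ± 18.4 CPM in D2PGCLCs (log2 fold change 0.03 ± 0.09). In PRC1.6, the variant Polycomb complex named above, Ring1 rose from 5.22 ± 0.947 to 21.2 ± 5.58 CPM (log2 fold change 2.03 ± 0.22) and none of the 13 other members tested was called, although 1 was called lower without EpiLC replicate 2, EpiLC replicate 3 or D2PGCLC replicate 3.

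FGF ligands mostly fell and ERK response genes divided. Of the 34 tested members, 5 (14.7%) were called higher and 13 (38.2%) lower. Fgf15 fell from 26.3 ± 3.92 to 0.848 ± 0.11 CPM (log2 fold change -4.95 ± 0.54). Fgf8 fell from 4.87 ± 2.15 to 0.085 ± 0.0627 CPM (log2 fold change -5.77 ± 0.78, and -6.51 without D2PGCLC replicate 1), beside Fgf5 above. Egr1, an immediate target of ERK, was at 223, 286 and 276 CPM in EpiLCs and 22.2, 21.5 and 11.8 CPM in D2PGCLCs (log2 fold change -3.83 ± 0.24), and Ccnd1, which encodes cyclin D1, fell from 150.4 ± 8.86 to 30.9 ± 1.68 CPM (log2 fold change -2.28 ± 0.12). The feedback inhibitors did not move with them. Dusp6 was at 69.7 ± 5.48 CPM in EpiLCs and 77.3 ± 3.36 CPM in D2PGCLCs (log2 fold change 0.15 ± 0.09). Spry4 was at 31 ± 3.39 CPM in EpiLCs and 41.9 ± 3.39 CPM in D2PGCLCs (log2 fold change 0.43 ± 0.16). Dusp4, another phosphatase of ERK, rose from 63 ± 7.58 to 186 ± 18.8 CPM (log2 fold change 1.56 ± 0.14). The receptor Fgfr1 was at 109 ± 6.05 CPM in EpiLCs and 156 ± 13.2 CPM in D2PGCLCs (log2 fold change 0.51 ± 0.08).

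Immediate early genes, which answer growth factors and stress within minutes, fell in part. Of the 20 tested members, 1 (5%) was called higher and 10 (50%) lower. Fos was at 107, 147 and 134 CPM in EpiLCs and 1.59, 1.76 and 1.11 CPM in D2PGCLCs (log2 fold change -6.45 ± 0.25, edgeR adjusted p = 4.67e-13). Fosb fell from 88.2 ± 7.8 to 1.82 ± 0.805 CPM (log2 fold change -5.58 ± 0.36). Jun fell from 86.3 ± 11.9 to 13.3 ± 2.6 CPM (log2 fold change -2.69 ± 0.16). Nr4a1, an orphan nuclear receptor of the same early response, rose from 14.6 ± 1.54 to 70.6 ± 5.72 CPM (log2 fold change 2.27 ± 0.11). Junb was at 14.5 ± 0.336 CPM in EpiLCs and 14.5 ± 0.564 CPM in D2PGCLCs (log2 fold change 0.01 ± 0.15). Among the stress genes of the same list, of the 9 tested members, 4 (44.4%) were called higher and 1 (11.1%) lower, and of its 7 heat shock genes 0 were called higher and 2 lower. Asns, the asparagine synthetase that ATF4 induces, was at 146, 158 and 143 CPM in EpiLCs and 1414, 982 and 1693 CPM in D2PGCLCs (log2 fold change 3.19 ± 0.15). Trib3 and Chac1, which ATF4 also induces, rose from 14.4 ± 0.499 to 83.4 ± 54.6 CPM (log2 fold change 2.53 ± 0.42) and from 7.63 ± 0.893 to 56.8 ± 34.1 CPM (log2 fold change 2.90 ± 0.39). The amino acid transporter Slc7a5, named for its gain in CPM, rose from 302 ± 14.3 to 686 ± 181 CPM (log2 fold change 1.18 ± 0.14). The aminotransferase Bcat1, named by the same rule, rose from 176 ± 5.16 to 602 ± 114 CPM (log2 fold change 1.78 ± 0.11). The transporter Slc38a2 fell from 1129 ± 105 to 349 ± 41.2 CPM (log2 fold change -1.69 ± 0.09). Atf4 itself was at 206 ± 8.78 CPM in EpiLCs and 319.6 ± 109.6 CPM in D2PGCLCs (log2 fold change 0.64 ± 0.18). Ddit3 was at 2.3 ± 0.612 CPM in EpiLCs and 3.05 ± 1.51 CPM in D2PGCLCs (log2 fold change 0.42 ± 0.48).

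Nodal signalling genes fell at the level of co-receptor and targets. Of the 21 tested members, 3 (14.3%) were called higher and 6 (28.6%) lower. By role, 1 (11.1%) of the 9 targets was called higher and 5 (55.6%) lower. The ligands did not fall with them, as 2 (50%) of the 4 tested were called higher and 0 lower. Lefty1, the secreted antagonist that Nodal induces, was at 932, 691 and 739 CPM in EpiLCs and 88.3, 109.9 and 75.4 CPM in D2PGCLCs (log2 fold change -3.11 ± 0.15). Skil, a Smad corepressor, fell from 583 ± 45.6 to 183 ± 30.1 CPM (log2 fold change -1.67 ± 0.13). Nodal itself was at 89 ± 0.522 CPM in EpiLCs and 46.1 ± 5.25 CPM in D2PGCLCs (log2 fold change -0.95 ± 0.09), and was called lower without D2PGCLC replicate 2, at -1.04. The transducer Smad2 was at 82.9 ± 1.6 CPM in EpiLCs and 92.9 ± 3.45 CPM in D2PGCLCs (log2 fold change 0.16 ± 0.07). Eomes, a T-box target of Nodal, rose from 6.86 ± 0.638 to 19.07 ± 2.49 CPM (log2 fold change 1.47 ± 0.18).

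Of BMP genes, the ligand Bmp4 stood out. Bmp4, the signal that specifies PGCs in the embryo, was at 4.9, 8.02 and 7.82 CPM in EpiLCs and 51.1, 58.8 and 57.8 CPM in D2PGCLCs (log2 fold change 3.01 ± 0.22). The immediate BMP targets Id1, Id2 and Id3 were not called, with log2 fold changes of -0.11 ± 0.28, -0.37 ± 0.18 and 0.15 ± 0.14. The homeobox targets parted. Msx2 rose from 0.334 ± 0.278 to 2.97 ± 0.684 CPM (log2 fold change 3.16 ± 0.5, and 4.07 without EpiLC replicate 1). Msx1 fell from 3.41 ± 0.672 to 0.0239 ± 0.0414 CPM, a ratio of 159 over the pooled counts with an exact 95% interval of 43.6 to 1320, an interval that covers counting error alone. Over the list, of the 23 tested members, 4 (17.4%) were called higher and 4 (17.4%) lower.

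More WNT genes were called lower than higher. Of the 49 tested members, 4 (8.16%) were called higher and 15 (30.6%) lower, with a median log2 fold change of -0.85. Wnt7b was at 0.842, 0.0658 and 0.22 CPM in EpiLCs and 26.1, 36.4 and 21.4 CPM in D2PGCLCs (log2 fold change 6.26 ± 0.39, edgeR adjusted p = 1.98e-10), and the log2 fold change was 7.62 without EpiLC replicate 1. Wnt3a rose from 0.25 ± 0.0178 to 5.99 ± 0.217 CPM (log2 fold change 4.56 ± 0.49). Wnt8a fell from 19.2 ± 5.62 to 0.529 ± 0.444 CPM (log2 fold change -5.22 ± 0.45, and -6.11 without D2PGCLC replicate 2). Of the receptors, Fzd4 fell from 6.84 ± 1.58 to 0.757 ± 0.102 CPM (log2 fold change -3.17 ± 0.41). Fzd7 fell from 119 ± 2.29 to 52 ± 5.66 CPM (log2 fold change -1.19 ± 0.10). The transcription factors Lef1 and Tcf7 fell from 122 ± 2.62 to 21.2 ± 8.97 CPM (log2 fold change -2.53 ± 0.39) and from 112 ± 8.11 to 39 ± 5.1 CPM (log2 fold change -1.52 ± 0.11). The feedback target Axin2 was at 16.8 ± 3.94 CPM in EpiLCs and 9.34 ± 2.1 CPM in D2PGCLCs (log2 fold change -0.85 ± 0.20), and was called lower without D2PGCLC replicate 2, at -1.02.

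All 5 Notch ligands tested fell. Dll1 was at 89.96, 72.9 and 64.8 CPM in EpiLCs and 1.2, 1.61 and 0.63 CPM in D2PGCLCs (log2 fold change -6.07 ± 0.29). Dll3 fell from 22.6 ± 8.75 to 1.56 ± 0.278 CPM (log2 fold change -3.85 ± 0.32). Dll4 fell from 1.53 ± 0.346 to 0.0511 ± 0.0885 CPM (log2 fold change -4.76 ± 0.94, and -8.60 without D2PGCLC replicate 1). Jag1 fell from 14.2 ± 0.315 to 4.88 ± 1.02 CPM (log2 fold change -1.55 ± 0.18). Jag2 fell from 36.2 ± 0.425 to 12 ± 2.06 CPM (log2 fold change -1.59 ± 0.13). The receptor Notch3 fell from 120 ± 7.23 to 22.9 ± 2.34 CPM (log2 fold change -2.39 ± 0.12), Notch4 rose from 5.51 ± 0.823 to 37.9 ± 7.01 CPM (log2 fold change 2.78 ± 0.25), and Notch1 and Notch2 were not called. Over the pathway, of the 24 tested members, 3 (12.5%) were called higher and 10 (41.7%) lower, and 1 was called higher without D2PGCLC replicate 2.

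The receptor genes of LIF, the cytokine that sustains naive pluripotency through STAT3, and of interleukin 6 rose. Lifr rose from 20.4 ± 2.76 to 69.2 ± 8.56 CPM (log2 fold change 1.76 ± 0.13). Its signalling partner Il6st rose from 42.3 ± 7.21 to 175 ± 9.7 CPM (log2 fold change 2.05 ± 0.11). Il6ra, which encodes the interleukin 6 receptor, rose from 0.829 ± 0.264 to 3.62 ± 0.566 CPM (log2 fold change 2.13 ± 0.24). The groups did not overlap in any of these 3 genes. Socs3, the feedback target of STAT3, was at 6.49 ± 0.748 CPM in EpiLCs and 7.21 ± 4.15 CPM in D2PGCLCs (log2 fold change 0.14 ± 0.42). Stat3 was at 33.1 ± 2.51 CPM in EpiLCs and 22.1 ± 0.404 CPM in D2PGCLCs (log2 fold change -0.58 ± 0.09). Of the 18 tested members, 6 (33.3%) were called higher and 4 (22.2%) lower.

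**Figure D3:**
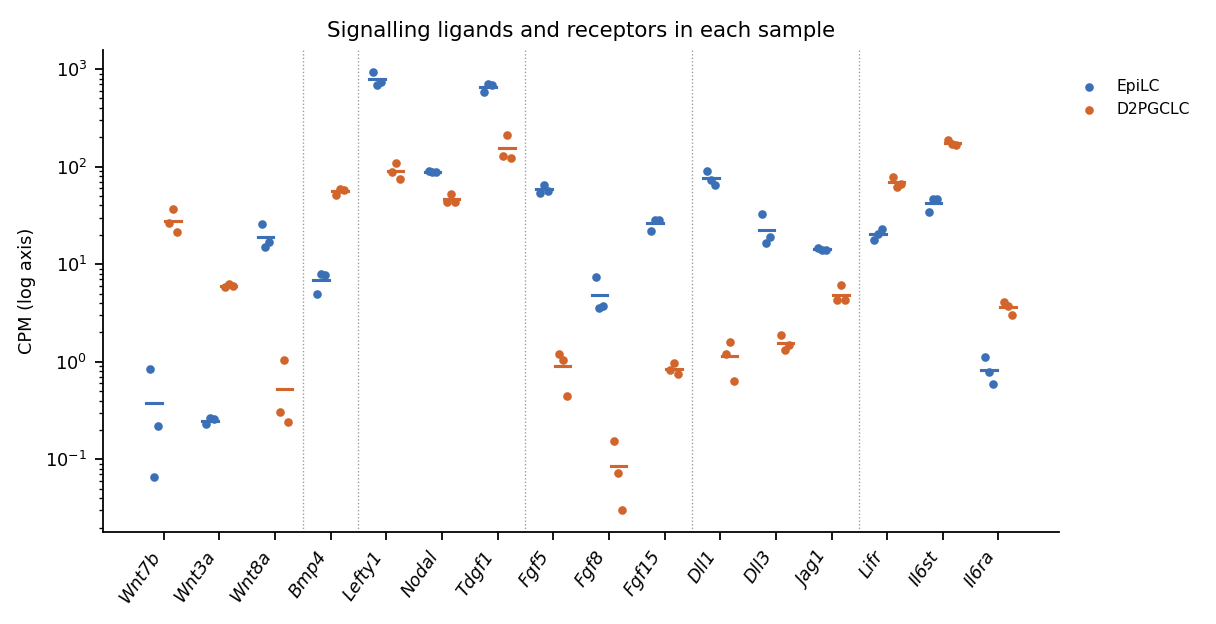
CPM on a log axis for 16 signalling genes in each of the 3 EpiLC samples (blue) and 3 D2PGCLC samples (orange), with bars at the group means and dotted lines between WNT ligands, Bmp4, Nodal genes, FGF ligands, Notch ligands and LIF-family receptors. The groups do not overlap in any of the 16 genes, which were picked for the figure. Wnt7b, Wnt3a, Bmp4 and the receptors are higher in D2PGCLCs and the other 10 lower. Of all tested genes, 30.6% were higher without overlap and 30.3% lower.

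Most genes of neural progenitors and neurons fell. Of the 39 tested members, 2 (5.13%) were called higher and 23 (59%) lower, and the median log2 fold change was -1.54. The 2 called higher were the transcription factors Neurog1 (log2 fold change 4.51, and 7.89 without EpiLC replicate 1) and Olig3 (2.90, and 3.55 without EpiLC replicate 1). Gpm6a, a membrane glycoprotein of neurons, fell from 1.89 ± 0.171 to 0.193 ± 0.0374 CPM (log2 fold change -3.27 ± 0.58). Crabp2, a retinoic acid carrier, fell from 23.4 ± 6.49 to 1.02 ± 0.753 CPM (log2 fold change -4.55 ± 0.37, and -5.29 without D2PGCLC replicate 2). Nes, an intermediate filament of neural progenitors, fell from 39.4 ± 3.55 to 16.9 ± 1.26 CPM (log2 fold change -1.21 ± 0.10). Sox3, Sox4 and Sox11 belong to this list as well as to the formative one.

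Mesoderm and trophoblast genes moved both ways. Of the 28 tested members, 7 (25%) were called higher and 6 (21.4%) lower in mesoderm. The summed level of that list was low, between 43.2 and 44.8 CPM in EpiLC samples and between 62.8 and 79.6 CPM in D2PGCLC samples. Meis1 and Meis2, homeobox cofactors, rose from 0.134 ± 0.0838 to 2.26 ± 0.234 CPM (log2 fold change 4.06 ± 0.39, and 4.64 without EpiLC replicate 1) and from 1.28 ± 0.601 to 9.5 ± 3.72 CPM (log2 fold change 2.87 ± 0.31). Lhx1 rose from 0.376 ± 0.173 to 4.47 ± 1.51 CPM (log2 fold change 3.57 ± 0.34). Snai1, which drives epithelial-mesenchymal transition, fell from 3.66 ± 0.816 to 0.49 ± 0.234 CPM (log2 fold change -2.89 ± 0.51). Of the 25 tested members, 9 (36%) were called higher and 8 (32%) lower in trophoblast, a list that holds the transgene Tfap2c. By role, 7 (53.8%) of its 13 transcription factors were called higher and 1 (7.69%) lower. Of its 12 other members, 2 (16.7%) were called higher and 7 (58.3%) lower. Elf5 rose with a log2 fold change of 3.48, and 7.18 without EpiLC replicate 2. Gata3 rose from 0.483 ± 0.253 to 4.42 ± 0.538 CPM (log2 fold change 3.20 ± 0.33). Tead4 rose from 4.52 ± 0.684 to 22.8 ± 2.38 CPM (log2 fold change 2.33 ± 0.13). Ly6a rose from 0.499 ± 0.408 to 8.71 ± 1.03 CPM (log2 fold change 4.08 ± 0.34, and 4.85 without EpiLC replicate 2). Cdx2, a defining trophoblast factor, was at 0.583 ± 0.206 CPM in EpiLCs and 0.29 ± 0.127 CPM in D2PGCLCs (log2 fold change -0.99 ± 0.59). The keratins of simple epithelia Krt8, Krt18 and Krt19 fell, with log2 fold changes of -1.99 ± 0.19, -1.68 ± 0.14 and -3.27 ± 0.54. Across all keratin genes, 0 of the 16 tested were called higher and 11 lower.

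Endoderm and posterior patterning genes moved both ways. Of the 26 tested members, 4 (15.4%) were called higher and 9 (34.6%) lower in endoderm, the higher count being 2 without D2PGCLC replicate 2. Foxa2, a forkhead factor of endoderm, fell from 1.04 ± 0.155 to 0.0441 ± 0.0239 CPM, a ratio of 24.6 over the pooled counts with an exact 95% interval of 9.29 to 92.5. Lrp2, an endocytic receptor, fell from 222 ± 10.7 to 18 ± 4.29 CPM (log2 fold change -3.62 ± 0.20). Gata6 was at 0.417 ± 0.227 CPM in EpiLCs and 0.244 ± 0.141 CPM in D2PGCLCs (log2 fold change -0.74 ± 0.60). Apoe, a lipid carrier and a member of this list, rose from 308 ± 49.1 to 712 ± 53.4 CPM (log2 fold change 1.21 ± 0.14). Of the 16 tested members, 3 (18.8%) were called higher and 3 (18.8%) lower among Hox and Cdx genes, and their summed level was between 5.05 and 8.53 CPM in every sample.

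The EpiLC samples held low levels of genes that mark other cell types. Of the 14 tested members, 0 were called higher and 11 (78.6%) lower among fibroblast and blood markers. Dcn, a matrix proteoglycan of fibroblasts, was at 6.89, 5.69 and 4.92 CPM in EpiLCs and 0, 0 and 0.09 CPM in D2PGCLCs, and its mean was 0 CPM in ESCs and on days 4 and 6. Thy1, a surface protein of fibroblasts and neurons, was at 11.4, 12.1 and 14.8 CPM and 0.276, 1.11 and 0.42 CPM, and Col1a1 at 3.9, 3.72 and 3.19 CPM and 0.368, 0.287 and 0.36 CPM. All EpiLC samples lay above all D2PGCLC samples in these 3 genes. The fibroblast list summed to between 694 and 771 CPM in EpiLC samples and between 811 and 1069 CPM in D2PGCLC samples, most of it from Fn1, at 690.4 ± 39.9 CPM in EpiLCs and 940.5 ± 131 CPM in D2PGCLCs (log2 fold change 0.45 ± 0.11). Lum, another defining fibroblast gene, had 0 counts in every EpiLC sample, and Postn at most 4. The blood markers summed to between 10.7 and 14.0 CPM and between 1.5 and 2.08 CPM, respectively. The part of such cells in the genes that fell was not tested.

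**Figure D4:**
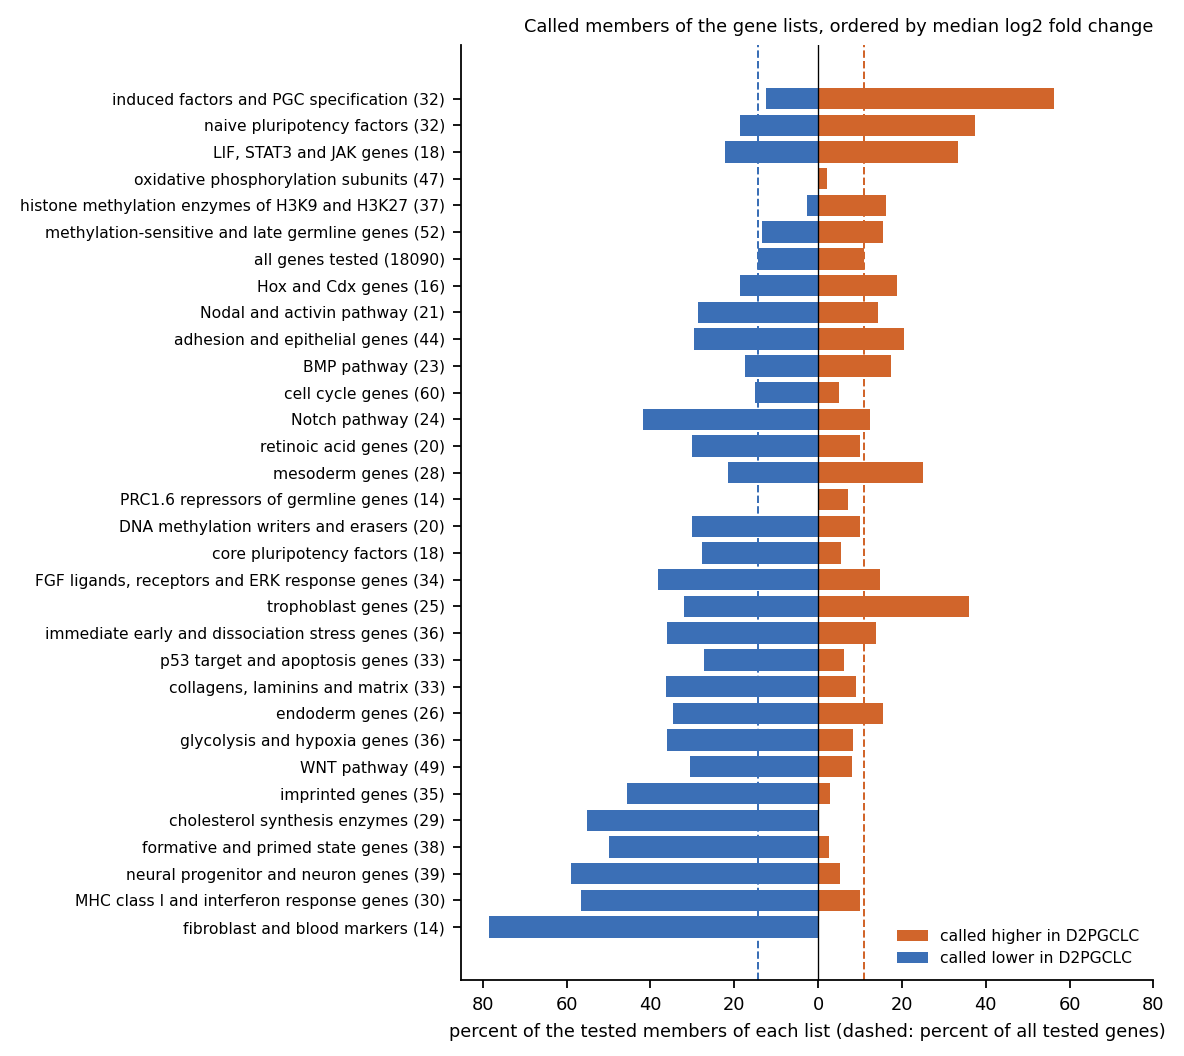
Percent of the tested members of each gene list (number in brackets) called higher (orange, to the right) or lower (blue, to the left) in D2PGCLCs, ordered by the median log2 fold change of the list, with all 18090 tested genes as a bar among them. The dashed lines are at 11.0% and 14.4%, the shares of all tested genes, and the list of germ cell specification has the largest share called higher, 18 of 32.

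Adhesion genes moved both ways, while the collagens called were all lower. Of the 44 tested members, 9 (20.5%) were called higher and 13 (29.5%) lower in adhesion. Cdh3, which encodes P-cadherin, rose from 49.97 ± 4.79 to 153 ± 18.5 CPM (log2 fold change 1.61 ± 0.10) as Cdh1 and Cdh2, N-cadherin, fell, the latter from 7.25 ± 0.621 to 2.76 ± 0.501 CPM (log2 fold change -1.39 ± 0.24). The claudin Cldn3 rose from 4.37 ± 0.827 to 23.6 ± 3.41 CPM (log2 fold change 2.43 ± 0.23). The intermediate filament Vim fell from 85.8 ± 6.99 to 10.2 ± 2.3 CPM (log2 fold change -3.08 ± 0.16). Of the integrin subunits other than Itgb3, Itga9 and Itga7 rose from 3.44 ± 0.794 to 14.5 ± 0.77 CPM (log2 fold change 2.07 ± 0.28) and from 0.601 ± 0.0821 to 2.42 ± 0.119 CPM (log2 fold change 2.0 ± 0.41). Itga4 fell from 1.44 ± 0.702 to 0.122 ± 0.0818 CPM (log2 fold change -3.55 ± 1.03, and -4.17 without D2PGCLC replicate 2). Gja1, the gap junction protein connexin 43, had the smallest adjusted p of all genes and fell from 316 ± 6.31 to 15.9 ± 1.96 CPM (log2 fold change -4.31 ± 0.09). Of the 33 tested members, 3 (9.09%) were called higher and 12 (36.4%) lower among collagens, laminins and other matrix genes, with 5 called higher without EpiLC replicate 3. The collagens among them had 0 called higher and 7 lower of 12, with a median log2 fold change of -1.38. The metalloproteinases Mmp2 and Mmp14 fell from 13 ± 1.34 to 0.39 ± 0.351 CPM (log2 fold change -5.09 ± 0.52, and -5.71 without D2PGCLC replicate 2 and -4.47 without D2PGCLC replicate 3) and from 18.6 ± 1.3 to 3.42 ± 0.488 CPM (log2 fold change -2.44 ± 0.19).

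Many genes of cholesterol synthesis fell. Of the 29 tested members, 0 were called higher and 16 (55.2%) lower in cholesterol synthesis, with a median log2 fold change of -1.35, and the list summed to between 5256 and 5397 CPM in EpiLC samples and between 2111 and 2557 CPM in D2PGCLC samples. Fdps fell from 7.52 ± 0.869 to 1.52 ± 0.246 CPM (log2 fold change -2.30 ± 0.25). Insig1, which the sterol factor SREBP induces, fell from 275 ± 6.47 to 70.2 ± 20.8 CPM (log2 fold change -1.97 ± 0.17). The sterol factor Srebf2 was at 313 ± 11.3 CPM in EpiLCs and 244 ± 20.3 CPM in D2PGCLCs (log2 fold change -0.36 ± 0.10). Acly, Fasn and Scd2, genes of fatty acid supply, are named because they were among the 10 largest losses of CPM. Acly, which makes cytosolic acetyl-CoA, fell from 1568 ± 100.1 to 577 ± 17.5 CPM (log2 fold change -1.44 ± 0.10). The fatty acid synthase Fasn fell from 1813 ± 63 to 775 ± 94.7 CPM (log2 fold change -1.23 ± 0.13). The desaturase Scd2 fell from 939 ± 33 to 115 ± 31.7 CPM (log2 fold change -3.03 ± 0.20).

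Some glycolysis genes fell, by amounts that differed between D2PGCLC samples. In glycolysis, of the 22 tested members, 1 (4.55%) was called higher and 8 (36.4%) lower, and among hypoxia genes, of the 14 tested members, 2 (14.3%) were called higher and 5 (35.7%) lower. The 13 called lower over both groups of genes were 7 without D2PGCLC replicate 1 and 7 without D2PGCLC replicate 3. Ldha, lactate dehydrogenase A, was at 1583, 1772 and 1753 CPM in EpiLCs and 238, 848 and 192 CPM in D2PGCLCs (log2 fold change -2.0 ± 0.54, edgeR adjusted p = 0.00419). D2PGCLC replicate 2 was the highest of its group, and without it the log2 fold change was -2.98. The lactate exporter Slc16a3 was at 481, 449.9 and 492 CPM and 26.6, 139 and 10.2 CPM (log2 fold change -3.03 ± 0.94), again highest in replicate 2. Its log2 fold change was -4.68 without D2PGCLC replicate 2 and -2.67 without D2PGCLC replicate 1, where it was not called, and DESeq2 gave it no adjusted p, at -3.07. The enolase Eno1 was at 2613, 2482 and 2577 CPM in EpiLCs and 1064, 1711 and 978 CPM in D2PGCLCs. Its log2 fold change was -1.03 ± 0.25 with all samples. It became -0.92 without D2PGCLC replicate 1 and -0.88 without D2PGCLC replicate 3, and -0.99 with library totals alone, short of the threshold. The glucose transporter Slc2a1 was at 752, 818 and 830.5 CPM and 202, 291 and 174 CPM (log2 fold change -1.85 ± 0.27), and its call held without any 1 sample. The summed level of both groups of genes was 12291, 18853.5 and 11945 CPM in D2PGCLC replicates 1, 2 and 3, against 21898 to 23397 CPM in EpiLCs, and every D2PGCLC sample lay below every EpiLC sample. Vegfa, the angiogenic factor that hypoxia induces, went the other way, from 7.88, 10.6 and 8.66 CPM to 117, 84.2 and 119 CPM (log2 fold change 3.56 ± 0.16), and was lowest in D2PGCLC replicate 2. Adm, another hypoxia-induced gene, fell from 9.13 ± 0.629 to 0.177 ± 0.1 CPM (log2 fold change -5.70 ± 0.77).

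Nuclear-encoded subunits of oxidative phosphorylation changed little. Of the 47 tested members, 1 (2.13%) was called higher and 0 lower, with a median log2 fold change of 0.10. The one called was Cox5a, which rose from 52.4 ± 7.76 to 118 ± 5.69 CPM (log2 fold change 1.18 ± 0.13). Of the 21 genes of the mitochondrial genome that were tested, 5 were called higher and 0 lower, with a median log2 fold change of 0.97. The gene with the largest gain in CPM of all was mt-Cytb, at 1924, 2546 and 2281 CPM in EpiLCs and 4779, 5170 and 4199 CPM in D2PGCLCs (log2 fold change 1.07 ± 0.12, and 0.97 without EpiLC replicate 1, short of the threshold). Of the 80 cytosolic ribosomal protein genes, 0 were called higher and 1 lower.

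**Figure D5:**
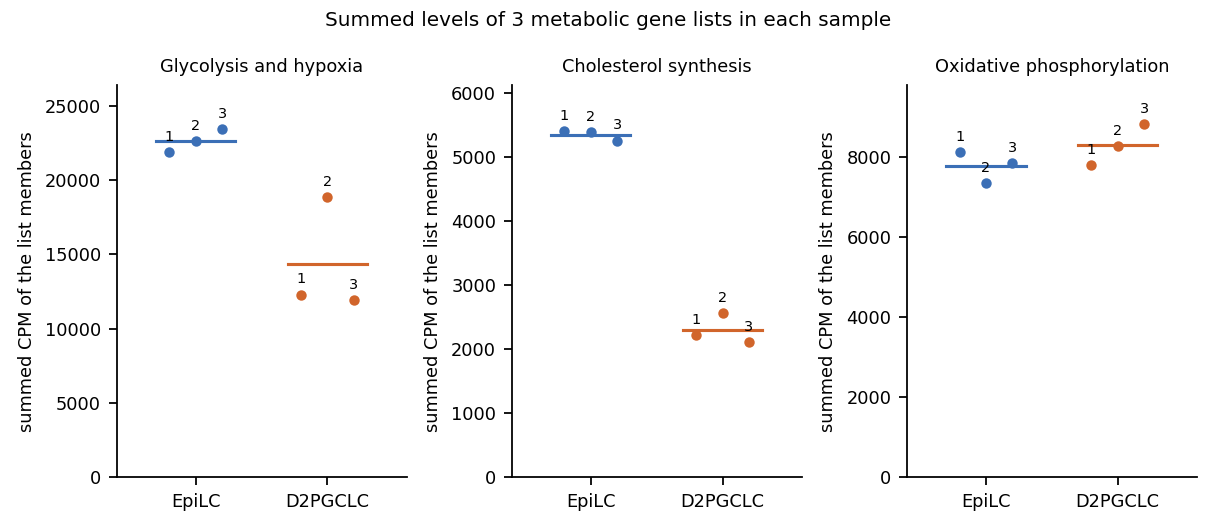
Summed CPM of the members of 3 metabolic gene lists in each sample, with replicate numbers beside the points and bars at the group means; the axes start at 0. D2PGCLC replicate 2 lies at 18853.5 CPM in glycolysis and hypoxia genes, above the other D2PGCLC samples and below the EpiLC samples, while the cholesterol lists of the groups are apart and those of oxidative phosphorylation overlap.

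Of cell cycle genes, members of G1 control, the CDK inhibitors and the MYC family were called, and none of the 16 of replication or the 15 of mitosis. Of the 60 tested members, 3 (5%) were called higher and 9 (15%) lower, a share lower close to that of all genes. Ccnd2 fell from 20.6 ± 3.63 to 1.8 ± 0.158 CPM (log2 fold change -3.52 ± 0.29) like Ccnd1, while Ccnd3 rose from 101 ± 5.05 to 319 ± 4.79 CPM (log2 fold change 1.66 ± 0.08). The inhibitors Cdkn1a and Cdkn1c fell from 45.1 ± 7.78 to 16.3 ± 3.13 CPM (log2 fold change -1.46 ± 0.14) and from 70.2 ± 9.95 to 1.74 ± 0.465 CPM (log2 fold change -5.34 ± 0.30). Rb1, the retinoblastoma gene, rose from 12.6 ± 3.06 to 31.1 ± 4.48 CPM (log2 fold change 1.30 ± 0.16). Myc and Mycl fell from 36.6 ± 3.63 to 14.5 ± 0.631 CPM (log2 fold change -1.34 ± 0.30) and from 36.8 ± 1.85 to 7.05 ± 3.82 CPM (log2 fold change -2.39 ± 0.29). Mycn was at 202 ± 4.79 CPM in EpiLCs and 192 ± 10.3 CPM in D2PGCLCs (log2 fold change -0.07 ± 0.08). Of the 33 tested members, 2 (6.06%) were called higher and 9 (27.3%) lower among p53 targets and apoptosis genes. Perp, a p53 target of cell junctions, rose from 4.51 ± 1.38 to 15.9 ± 2.34 CPM (log2 fold change 1.82 ± 0.22). Plk2 fell from 27.2 ± 1.22 to 6.55 ± 2.47 CPM (log2 fold change -2.05 ± 0.28), while Trp53 was at 331 ± 19.3 CPM in EpiLCs and 579.9 ± 35.9 CPM in D2PGCLCs (log2 fold change 0.81 ± 0.08).

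Most genes of MHC class I presentation fell, and fewer of the interferon response did. Of the 30 tested members, 3 (10%) were called higher and 17 (56.7%) lower, with a median log2 fold change of -1.61. By role, 0 of the 12 MHC genes were called higher and 10 (83.3%) lower. Of the 18 interferon genes, 3 (16.7%) were called higher and 7 (38.9%) lower. The MHC class I gene H2-K1 was at 66.2, 73.8 and 79.6 CPM in EpiLCs and 13.2, 21.3 and 9.36 CPM in D2PGCLCs (log2 fold change -2.33 ± 0.22). The peptide transporter Tap1 fell from 7.35 ± 1.29 to 0.843 ± 0.0858 CPM (log2 fold change -3.12 ± 0.30). The immunoproteasome subunits Psmb8 and Psmb10 fell from 6.1 ± 0.541 to 0.475 ± 0.176 CPM (log2 fold change -3.68 ± 0.60) and from 51.1 ± 4.25 to 6.07 ± 0.401 CPM (log2 fold change -3.07 ± 0.20). B2m, the light chain of class I, was at 5.95 ± 0.612 CPM in EpiLCs and 3.46 ± 0.463 CPM in D2PGCLCs (log2 fold change -0.78 ± 0.34). Irf9, an interferon signalling factor, rose from 5.36 ± 0.669 to 15.8 ± 2.07 CPM (log2 fold change 1.56 ± 0.13).

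More retinoic acid genes and imprinted genes were called lower than higher. Of the 20 tested members, 2 (10%) were called higher and 6 (30%) lower among retinoic acid genes, with 1 called higher without EpiLC replicate 1, EpiLC replicate 2 or D2PGCLC replicate 3. Stra6, a retinol receptor, fell from 2.29 ± 0.924 to 0.384 ± 0.35 CPM (log2 fold change -2.60 ± 0.62, and -3.62 without D2PGCLC replicate 2). Dhrs3, which reduces retinal, fell from 1.58 ± 0.104 to 0.428 ± 0.0788 CPM (log2 fold change -1.88 ± 0.41). Of the 35 tested members, 1 (2.86%) was called higher and 16 (45.7%) lower among imprinted genes, which are expressed from 1 parental copy, and the median log2 fold change was -1.01. The maternally expressed noncoding RNAs Meg3 and Rian of one imprinted cluster fell, Meg3 from 23.9, 26.3 and 28.5 CPM to 6.47, 2.9 and 3.99 CPM (log2 fold change -2.55 ± 0.26) and Rian from 165 ± 13.8 to 17 ± 3.78 CPM (log2 fold change -3.27 ± 0.17). Mest, a paternally expressed gene, fell from 628 ± 21.8 to 172 ± 5.62 CPM (log2 fold change -1.87 ± 0.08). H19 was the only member called higher and rose from 119 ± 15.6 to 458 ± 126 CPM (log2 fold change 1.95 ± 0.19).

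The largest rises among protein-coding genes with a mean of at least 100 counts included few genes of the lists above. Mobp, a protein of myelin, was at 0.115, 0.0329 and 0.367 CPM in EpiLCs and 17.4, 22 and 16.3 CPM in D2PGCLCs (log2 fold change 6.76 ± 0.48, and 7.96 without EpiLC replicate 3). Capn6 rose from 0.148 ± 0.137 to 10.4 ± 1.22 CPM (log2 fold change 6.14 ± 0.36, and 7.15 without EpiLC replicate 1). The phospholipase Pla2g4e rose from 0.565 ± 0.0796 to 35.9 ± 3.04 CPM (log2 fold change 5.99 ± 0.23). BC048679 rose from 0.281 ± 0.133 to 16 ± 6.58 CPM (log2 fold change 5.83 ± 0.38). The choline dehydrogenase Chdh rose from 0.464 ± 0.247 to 22.2 ± 5.03 CPM (log2 fold change 5.57 ± 0.35). The reproductive homeobox genes Rhox9 and Rhox6 rose to 81.8, 94.9 and 107 CPM and 66, 70.7 and 90.6 CPM in the D2PGCLC samples, from 2.52, 2.2 and 1.61 CPM and 1.95, 1.12 and 2.17 CPM in EpiLCs. Of the 22 Rhox genes tested, 6 were called higher and 1 lower. The other large rises, after Itgb3, were those of Ttc28, Insyn1, P2rx3, Nacc2, Ptpre and Adgrg6, with log2 fold changes between 4.21 and 5.10. P2rx3, an ATP-gated channel, varied most among them, at 6.65, 2.29 and 12.8 CPM in the D2PGCLC samples, and its log2 fold change of 4.78 ± 0.63 was 4.09 without D2PGCLC replicate 3. By CPM gained, Etnk1, an ethanolamine kinase, and Usp48, a ubiquitin protease, completed the 10 largest rises, going from 213 ± 25.5 to 657 ± 59.6 CPM (log2 fold change 1.62 ± 0.11) and from 212 ± 8.32 to 624 ± 36.4 CPM (log2 fold change 1.56 ± 0.08).

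The largest falls by the same rule, beside Zscan4c, Zscan4d, Fos, Dll1, Fgf5, Pou3f1 and Adm, were those of Grm6, Cdk5r2, Mmp25, Mfap4, Sema6a, Btbd17, Tmem54 and Kif1a. Cdk5r2, an activator of CDK5, fell from 8.7 ± 0.838 to 0.0919 ± 0.107 CPM (log2 fold change -6.59 ± 0.71, and -7.98 without D2PGCLC replicate 2). The metalloproteinase Mmp25 fell from 68 ± 7.55 to 1.12 ± 0.775 CPM (log2 fold change -5.95 ± 0.33, and -6.59 without D2PGCLC replicate 2). The kinesin Kif1a fell from 40.4 ± 3.91 to 0.786 ± 0.347 CPM (log2 fold change -5.70 ± 0.31). By CPM lost, Klhl13, an adaptor for ubiquitin ligases, completed the list, going from 1048 ± 65.5 to 395 ± 73.4 CPM (log2 fold change -1.41 ± 0.14). Among long noncoding RNAs, 1110002J07Rik rose from 2.62 ± 0.264 to 22.7 ± 4.35 CPM (log2 fold change 3.11 ± 0.15). Panct2 rose from 2.14 ± 0.598 to 14 ± 1.24 CPM (log2 fold change 2.71 ± 0.20). Snhg20 rose from 4.14 ± 0.523 to 20.2 ± 2.12 CPM (log2 fold change 2.29 ± 0.17). Miat fell from 8.87 ± 1.2 to 0.167 ± 0.149 CPM (log2 fold change -5.74 ± 0.56, and -5.13 without D2PGCLC replicate 3). Platr5 fell from 9.82 ± 2.64 to 0.635 ± 0.296 CPM (log2 fold change -3.96 ± 0.42).

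No gene went from at most 3 counts in every EpiLC sample to at least 100 counts in every D2PGCLC sample, and 11 genes did the reverse, 9 protein-coding and 2 lincRNA genes. Grm6, a glutamate receptor (chromosome 11, 50850685 to 50866208 in mm10), had 306, 349 and 335 counts in the EpiLC samples and 0, 3 and 0 in the D2PGCLC samples, a ratio of 369.7 over the pooled counts with an exact 95% interval of 126 to 1796. Xist, the noncoding RNA of X inactivation, had 195, 373 and 288 counts and then 2, 3 and 0, a ratio of 192 with an interval of 81.9 to 592. The line was male, and Xist averaged 0.341 CPM in ESCs and 10.1 CPM in EpiLCs. Why EpiLCs of a male line held this RNA was not tested. Zscan4d had 198, 292 and 270 counts and then 0, 3 and 3, and Zscan4e 115, 207 and 187 and then 1, 0 and 2. Clic5, an intracellular chloride channel protein, had 150, 259 and 145 counts and then 2, 2 and 0. The other genes were Dcn, Kynu, Gm29895, Sphkap, Gm8332 and Abca9. Of the 11, Dcn, Kynu and Gm29895 had a mean of 0 CPM in ESCs, D4PGCLCs and D6PGCLCs.

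The called genes were spread over biotypes and chromosomes, with some differences that are given as descriptions. Of 14775 protein-coding genes 11.2% were called higher and 15.1% lower, of 679 lincRNA genes 13.7% and 19.7%, of 418 antisense genes 14.4% and 9.57%, and of 913 processed pseudogenes 4.49% and 9.75%. Among the autosomes and chromosome X, the largest share called lower was that of chromosome X, 18.9% of 684 genes with 8.63% higher, and the smallest share called higher that of chromosome 13, 6.66% of 766 genes. By level, 21.2% and 24.1% of the genes in the lower quartiles of mean CPM were called lower and 8.36% and 4.0% in the upper ones. By GC content of the exons, the shares called higher and lower were 7.61% and 11.8% in the lowest quartile and 13.4% and 17.9% in the highest. Exon length showed no such order, with 10.3% to 11.6% called higher and 13.4% to 15.7% called lower across its quartiles.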

How the data were processed

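Total RNA of the 6 samples was sequenced with a stranded library kit. Per the labels, reads were trimmed with Trim Galore, checked with FastQC and aligned with STAR to mm10. The values the authors deposited are read counts for each ENSEMBL gene, not normalized. The counting tool, the annotation release, the use of strand and the handling of reads matching several genes are not given in the sources used here, so overlapping, antisense and near-identical genes, such as those of the Zscan4, Ifitm and Rhox families, are uncertain.

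Counts of all 15 samples were fitted in edgeR 4.0.16 (R 4.3.3) with 1 coefficient per group, TMM normalization, the filterByExpr filter with its minimum of 10 counts and Benjamini-Hochberg adjustment over 18090 genes. Symbols, coordinates, exon length and GC content came from GENCODE M21, which held all 55536 identifiers. The study's methods name DESeq2, an alternative here (version 1.42.0). A simulation of the comparison gave 17475 genes, of which 200 were changed. Of these, edgeR found 180 and DESeq2 181, and the false calls numbered 3 and 6. The changed genes were drawn above a minimum mean count and given fixed changes beyond the fold threshold, as many up as down. Far fewer genes were changed than were called in the data, so these numbers do not give the error of the calls reported here. Replicates of a group differed by a chi-square of 9.73 to 30.7 per gene, over genes with at least 20 counts in the pair, so each was counted as 1 sample. No column was left unused.

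Named genes were the transgenes and Dppa3, the 15 highest and 15 lowest fold changes among called protein-coding genes averaging 100 counts or more whose groups did not overlap, the 10 largest gains and losses of CPM, the 5 highest and 5 lowest long noncoding RNAs, the top genes switched off, and called members of 31 gene lists with others whose role is explained. Of the list members, 1 had no match. The lists and rules were chosen with earlier results of these data known. Alternatives were DESeq2, its size factors, library totals alone, no filter, only the 6 samples, the replicate number as a block, glmTreat, no fold cutoff, each sample left out, and other limits for genes switched on or off.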

Additional observations from a re-analysis of the deposited data

How the results depend on the processing

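The counts of 1988 higher and 2608 lower genes stayed within 1.5 times under DESeq2 (1919 and 2770), its size factors in edgeR (1867 and 2719), library totals alone (2117 and 2494), no filter on low counts (2102 and 2753) and a fit of the 6 samples alone (1822 and 2499). They moved to 1060.0 and 1538 when glmTreat tested against a log2 fold change of 1, and to 4919 and 4707 without a fold cutoff. With each sample left out in turn they were 1841 to 1971 and 2329 to 2589. Without D6PGCLC replicate 1, a library of another group with 18061 genes detected, which was left out after the data were seen, they were 2123 and 2857. The share of calls that were higher was 43.3% and ranged from 40.7% to 45.9% over these settings, except 51.1% without a fold cutoff. Replicate numbers did not pair the samples, as deviations of same-numbered samples correlated at 0.011, 0.0097 and -0.015, and the fit with the replicate number as a block called 1970.0 higher and 2590.0 lower. Genes switched on numbered 0, but 8 with at most 10 counts allowed in EpiLCs, 10 with at least 30 counts asked of D2PGCLCs, and 0 to 2 without 1 sample. Genes switched off numbered 11, and 38, 62 and 11 to 18 under the same alternatives, the highest without D2PGCLC replicate 2. Of the 890 single genes followed (849 in the fit of the 6 samples), no called fold change reversed, but 155 calls were lost and 119 gained over all settings, with up to 30 lost in 1, without D2PGCLC replicate 1. Counting error limits genes near 0, since 3 counts correspond to about 0.1 CPM. The cause of these differences was not tested.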
